A study of Mus musculus with 20 samples.

Results

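The 10 genes described here are Atf4, the transcription factor at the centre of the integrated stress response, and 9 genes known as its targets or partners: Ddit3, Trib3, Chac1, Asns, Sesn2, Atf5, Psat1, Phgdh and Ddit4. They were taken by symbol from the 55822 genes of the deposited table, and all 10 passed the filter on low counts that left 16266 genes to test. Poly(A) RNA of kidney tissue was sequenced. The donors were male C57BL/6J mice (an inbred strain) aged 8 weeks at the start. The control group received phosphate-buffered saline (PBS) and the treated group received puberulic acid at 1 mg per day, a tropolone made by some Penicillium moulds. Each was dosed 6 times, once a day, and kidneys were taken on day 7 after a day without dosing, with 5 samples in each group, and the labels do not state that each is a separate mouse. The labels name both gavage and intraperitoneal injection without saying which mouse had which, and they give no genetic change in either group. The series also holds 2 groups given lots of the supplement Choleste-Help, which are not analysed here because their column names do not say which lot they are.

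As background, the integrated stress response begins when a kinase that senses amino acid shortage, a loaded endoplasmic reticulum, haem shortage, mitochondrial trouble or double-stranded RNA phosphorylates the translation factor eIF2. Most protein synthesis slows, while Atf4 mRNA is translated more, so ATF4 protein can rise with no change in its mRNA. ATF4 then switches on genes for amino acid uptake and synthesis, for the control of growth signalling, and, when stress persists, for cell death. Kidney tubule cells, which are rich in mitochondria, are known to use this pathway after toxic or ischaemic injury. RNA counts do not measure eIF2 phosphorylation or ATF4 protein.

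ATF4 binds a composite C/EBP-ATF response element, whose core was searched as TGATGNAA on both strands in the RefSeq promoter windows of build GRCm38.p6 (250 bases before to 50 after each start). The 10 genes had 12 windows, and 3 of these held the core, those of Asns, Chac1 and Trib3. Of all 32851 windows of the same length, 3.97% held it. All 3 sites are shown, with the core in capitals and each sequence on the strand of its gene. Asns lies at chr6:7693214-7693243, minus strand, with the core 23 to 16 bases before the start. Trib3 lies at chr2:152344028-152344057, minus strand, with the core 15 to 22 bases after the start and in the opposite orientation. Chac1 lies at chr2:119350992-119351191, plus strand, with the core 193 to 186 bases before the start, also in the opposite orientation.
Asns: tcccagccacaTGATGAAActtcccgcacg
Trib3: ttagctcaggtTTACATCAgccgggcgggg
Chac1: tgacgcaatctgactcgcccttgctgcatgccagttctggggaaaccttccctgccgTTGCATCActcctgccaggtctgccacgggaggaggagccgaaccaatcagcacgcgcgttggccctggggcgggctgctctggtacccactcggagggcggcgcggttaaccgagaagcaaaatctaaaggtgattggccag
A match describes letters in this window only.

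With puberulic acid 9 of the 10 members rose, by 1.53-fold (Psat1) to 13.0-fold (Trib3), and Sesn2 alone did not pass the test under the scaling used. Of all 16266 tested genes, 34.2% were called higher and 31.1% lower, at an adjusted p-value under 0.05 (edgeR quasi-likelihood, Benjamini-Hochberg over all genes). A rise of at least 2-fold was called for 8 members, beside 18.7% of all tested genes. The levels of the 5 treated samples lay above those of all 5 controls for 7 members, beside 26.1% of all tested genes. No member was called lower, and none was lower at an unadjusted p-value under 0.05, by edgeR or by DESeq2 (0 of 10 by each). The median log2 fold change was 1.61 over the members and 0.046 over all tested genes.

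**Figure D1:**
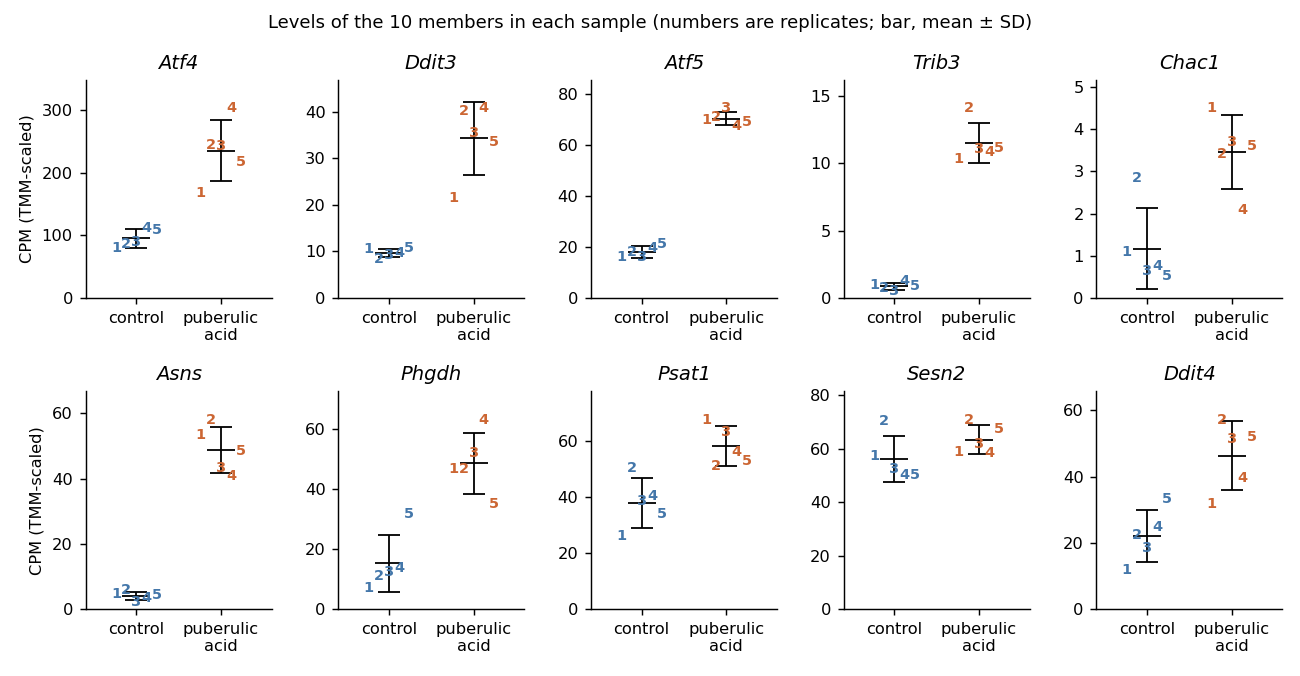
Each panel plots 1 member, with CPM (counts per 1000000 counted, scaled by TMM factors) on a linear axis from 0 for 5 control and 5 puberulic acid samples. The digits are replicate numbers, and the bars show the mean ± SD. The groups are apart in 7 panels and overlap for Chac1, Sesn2 and Ddit4.

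The transcription factors come first. Atf4 (ENSMUSG00000042406) was at 79.3, 85.9, 89.4, 112 and 109 CPM in control replicates 1 to 5. It was at 167, 245, 243, 303 and 217 CPM in puberulic acid replicates 1 to 5. All treated samples lay above all controls, with replicate 1 the lowest and replicate 4 the highest of them. Atf4 mRNA rose 2.47-fold, a log2 fold change of 1.31 ± 0.15 (SE, n = 5 in each group, edgeR adjusted p = 1.52e-05).

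Ddit3 (ENSMUSG00000025408) encodes CHOP, a C/EBP-family factor that ATF4 induces and that takes part in stress-linked cell death. Control levels ran narrowly from 8.33 to 10.7 CPM, and treated samples were at 21.5, 40.1, 35.5, 40.8 and 33.5 CPM. Replicate 1 was again the lowest of the treated samples, and it still lay above every control. The log2 fold change was 1.82 ± 0.17 (SE, edgeR adjusted p = 1.82e-06). A second identifier with the same symbol had 0 counts in every library and was not used.

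Atf5 (ENSMUSG00000038539), a related factor that is also controlled at translation and acts in the mitochondrial stress response, had the smallest error of the members. Control samples were at 16.0, 18.1, 15.9, 19.6 and 21.2 CPM. Treated samples were at 69.6, 70.8, 74.4, 67.4 and 69.2 CPM. The SD of the treated group was 2.60 CPM around a mean of 70.3 CPM, so the 5 samples had nearly the same level, replicate 1 included. The rise was 3.88-fold (log2 fold change 1.95 ± 0.09, SE, edgeR adjusted p = 1.74e-08). Exons of Atf5 overlap those of Nup62 and Il4i1 on the opposite strand, and exons of Ddit3 overlap those of Mars1 and Gm4189 in the same way, in the GENCODE M21 annotation. The library kit keeps strand, but whether counting used it is not given in the sources used here.

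Trib3 (ENSMUSG00000032715), a pseudokinase that ATF4 and CHOP induce and that in turn restrains ATF4, had the largest fold change of the members. It was nearly silent in controls, at 0.970, 0.738, 0.509, 1.25 and 0.909 CPM, which are only 8 to 20 counts per library. In treated samples it was at 10.3, 14.1, 11.1, 10.8 and 11.1 CPM, or 261 to 345 counts. The groups were far apart, with a log2 fold change of 3.70 ± 0.22 (SE, edgeR adjusted p = 7.37e-08). Only 3.31% of all tested genes had a larger log2 fold change.

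Chac1 (ENSMUSG00000027313), an enzyme that degrades glutathione, remained scarce in both groups. Controls were at 1.08, 2.85, 0.636, 0.748 and 0.520 CPM, and treated samples at 4.49, 3.41, 3.69, 2.08 and 3.60 CPM. Control replicate 2 exceeded puberulic acid replicate 4, so the groups overlap, and 4 of the 5 treated samples lay above every control. The gene was called higher, with a log2 fold change of 1.54 ± 0.43 (SE, edgeR adjusted p = 0.00723), the widest error of the members, from 8 to 54 counts per control library. Without control replicate 2 the fold rose from 2.91 to 4.54. The treated samples also differ here in order, since replicate 1, the lowest for Atf4 and Ddit3, was the highest for Chac1.

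**Figure D2:**
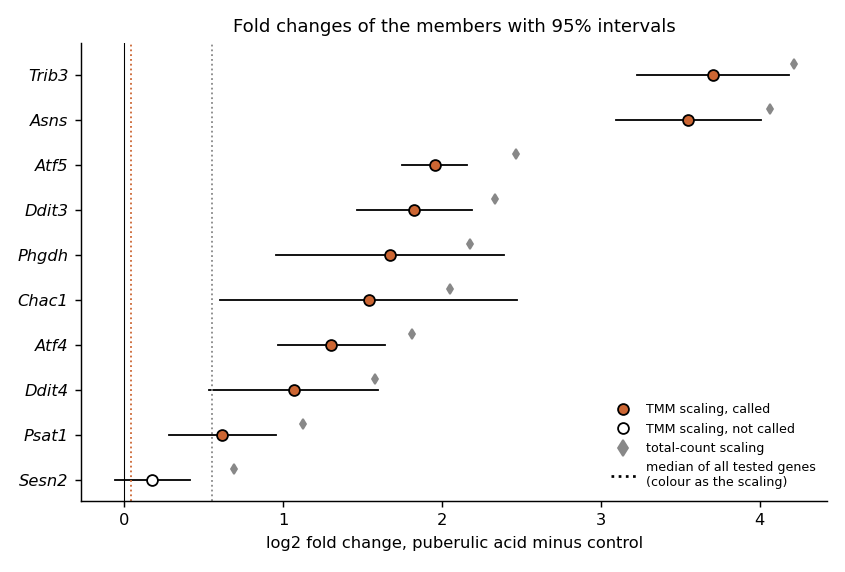
Circles give the log2 fold change of each member (puberulic acid minus control, TMM scaling) with its 95% interval from edgeR's SE and degrees of freedom, n = 5 in each group. Diamonds give total-count scaling, and dotted lines the median of all tested genes under each (0.046 and 0.56). Trib3 and Asns stand highest, and the interval of Sesn2 spans 0.

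Amino acid synthesis genes followed. Asns (ENSMUSG00000029752) encodes asparagine synthetase and is a classic ATF4 target. It was at 4.68, 5.91, 2.35, 3.49 and 4.29 CPM in controls and at 53.5, 58.1, 43.4, 41.0 and 48.5 CPM in treated samples. The lowest treated sample was far above the highest control, and the log2 fold change was 3.55 ± 0.21 (SE, edgeR adjusted p = 7.33e-08), an 11.7-fold rise. Unlike Atf4 and Ddit3, it was not lowest in replicate 1.

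Phgdh (ENSMUSG00000053398) encodes the first enzyme of serine synthesis from glycolysis. Controls were at 7.25, 11.2, 12.5, 13.7 and 31.7 CPM, and treated samples at 46.5, 46.5, 51.8, 63.0 and 35.1 CPM. The groups did not overlap, but control replicate 5 came close to replicate 5 of the treated group. For Phgdh the log2 fold change was 1.67 ± 0.33 (SE, edgeR adjusted p = 0.000751).

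Psat1 (ENSMUSG00000024640), the next enzyme of that route, had the smallest rise among the members called. Its controls were at 26.1, 50.7, 38.8, 40.4 and 34.2 CPM and its treated samples at 67.8, 51.1, 63.5, 56.3 and 53.2 CPM. The ranges nearly touch, at replicate 2 of each group. For Psat1 the log2 fold change was 0.62 ± 0.15 (SE, edgeR adjusted p = 0.00389), and 27.9% of all tested genes had a larger one.

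Psph, the third and last enzyme of the route, went the other way under the scaling used. It was at 16.2 ± 3.66 CPM in controls and 10.6 ± 0.918 CPM in treated samples (mean ± SD of 5 samples), or -0.61 ± 0.16 as log2 fold change (SE, edgeR adjusted p = 0.00415), and under total-count scaling -0.11 (edgeR adjusted p = 0.554). The 3 consecutive enzymes thus gave log2 fold changes of 1.67, 0.62 and -0.61.

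The last pair, Sesn2 and Ddit4, restrain the growth kinase complex mTORC1. Ddit4 (ENSMUSG00000020108), also called REDD1 and known to respond to glucocorticoids and low oxygen as well, was at 11.8, 22.5, 18.5, 24.7 and 33.3 CPM in controls. It was at 31.9, 57.2, 51.2, 39.5 and 52.0 CPM in treated samples. Control replicate 5 was above puberulic acid replicate 1, so the groups overlap, although 4 of 5 treated samples exceeded every control. The log2 fold change was 1.07 ± 0.24 (SE, edgeR adjusted p = 0.00213).

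Sesn2 (ENSMUSG00000028893) was at 57.2, 70.4, 52.3, 50.3 and 50.1 CPM in controls and at 58.6, 70.8, 61.8, 58.3 and 67.4 CPM in treated samples. The groups overlap through control replicate 2, which lay above 4 of the 5 treated samples, while the other 4 controls lay below every treated sample. The difference did not pass the test (log2 fold change 0.18 ± 0.11, SE, edgeR adjusted p = 0.166), with a 95% interval of the ratio from 0.961 to 1.33. It did pass with total-count scaling (0.69, edgeR adjusted p = 0.000145), upper-quartile scaling (0.28, edgeR adjusted p = 0.0364) and without control replicate 2 (0.26, edgeR adjusted p = 0.0259).

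**Figure D3:**
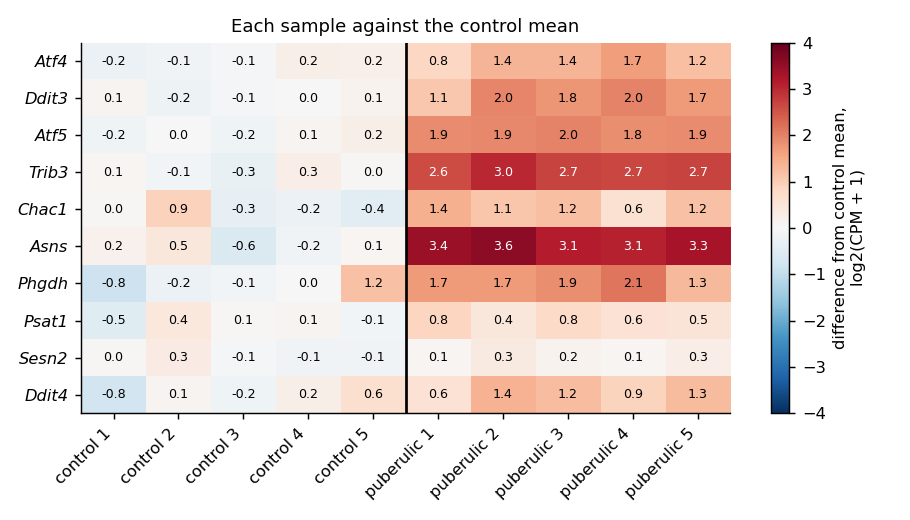
Each cell gives 1 sample's difference from the control mean of that gene on the log2(CPM + 1) scale, with members in rows and samples in columns. Atf5, Trib3 and Asns are similar in all 5 treated samples, while Atf4, Ddit3 and Ddit4 are lowest in puberulic acid replicate 1.

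The treated samples did not rank alike across the members. Puberulic acid replicate 1 was the lowest of its group for 4 members (Atf4, Ddit3, Trib3 and Ddit4) and the highest for 2 (Chac1 and Psat1). Replicate 4 was the lowest for 4 members and the highest for 3, Atf4 and Ddit3 among them. In replicate 1 the summed level of 7 proximal tubule markers was 1830 CPM, against 962 to 1120 CPM in the other treated samples. The sum of the 3 tubule injury markers was lowest there, at 1490 CPM against 1770 to 2700 CPM. Leaving that sample out changed no call among the 10 members.

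Compared per kilobase of transcript, Atf4 was the most abundant member in both groups, at 55.2 CPM per kb in controls and 136.3 CPM per kb with puberulic acid. Transcript length here is that of the longest coding transcript in GENCODE M21. In controls the order then ran Sesn2 (16.1), Psat1 (14.5), Ddit4 (12.6), Ddit3 (10.9), Atf5 (9.99) and Phgdh (8.06 CPM per kb). Sesn2 lay below Atf4 with no overlap, and each gene from Sesn2 to Phgdh overlapped the next. Asns (2.06), Chac1 (0.713) and Trib3 (0.432 CPM per kb) lay below Phgdh. Asns did not overlap Phgdh, while Asns overlapped Chac1 and Chac1 overlapped Trib3. With puberulic acid, Atf5 (38.7) and Ddit3 (38.5 CPM per kb) came next after Atf4, without overlapping it, and overlapped each other. Ddit4 (26.4), Phgdh (25.7), Asns (24.2), Psat1 (22.3) and Sesn2 (18.2 CPM per kb) followed, each overlapping the next. Trib3 (5.66) and Chac1 (2.11 CPM per kb) were lowest, with no overlap between them or with Sesn2.

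The wider pathway was read from 6 lists of 57 genes in all. Of the 54 tested, 28 were called higher and 11 lower, where 34.2% of all tested genes were called higher and 31.1% lower. Those 2 shares are the background for every list count under TMM scaling that follows, and a share near them is not a result about a list. The median log2 fold change of the 54 was 0.465, against 0.046 over all tested genes. With total-count scaling, which shifted the median of all tested genes to 0.56, 38 were higher and 6 lower. The counts over all 16266 tested genes under that scaling were 9179 higher and 2526 lower. The lists were uneven, and the enzymes in particular split in both directions.

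**Figure D4:**
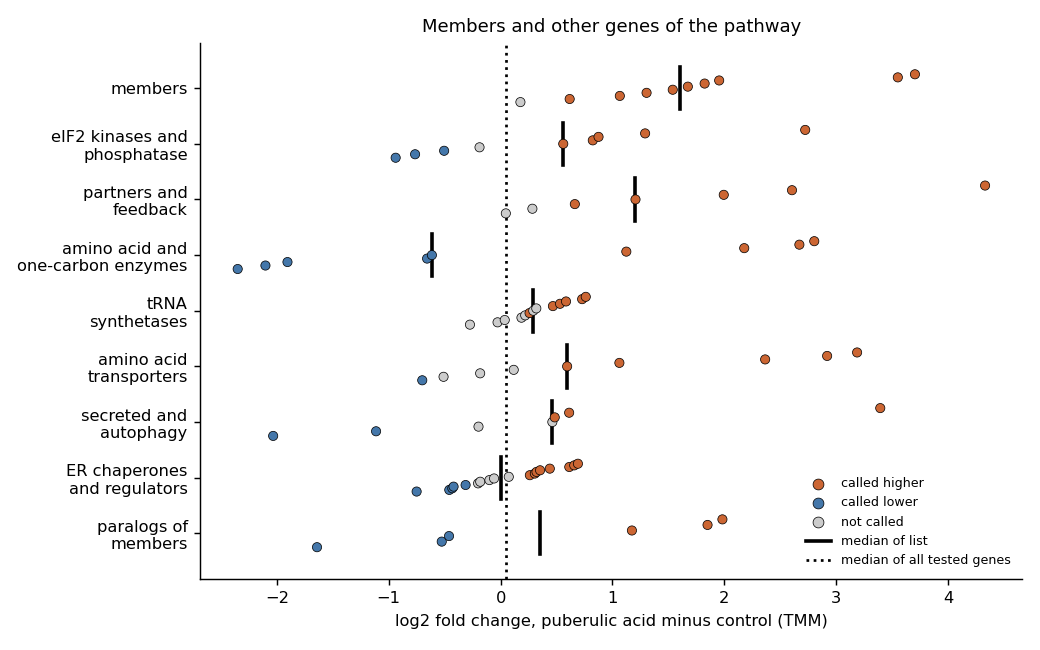
Each point is 1 tested gene, placed by its log2 fold change (puberulic acid minus control, TMM scaling) in the row of its list. Orange points were called higher, blue lower and grey neither, a thick line marks each list's median, and the dotted line the median of all tested genes (0.046). The members' median is 1.61, and the enzyme list has its median below 0, at -0.61.

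Upstream of ATF4, 5 of 9 genes were called higher and 3 lower. Of the 4 eIF2 kinases, 3 rose. Eif2ak3 (PERK, the sensor in the endoplasmic reticulum) and Eif2ak4 (GCN2, the sensor of uncharged tRNA) had log2 fold changes of 0.56 ± 0.14 and 0.82 ± 0.10 (SE). Eif2ak2 (PKR, the sensor of double-stranded RNA) went from 14.3 ± 6.60 to 35.0 ± 6.97 CPM (mean ± SD of 5 samples), with a log2 fold change of 1.29 ± 0.27 (SE, edgeR adjusted p = 0.00107) and overlapping groups. Eif2ak1 (HRI, the haem sensor) was called lower, at 83.3 ± 8.52 CPM in controls and 58.7 ± 7.25 CPM in treated samples, all of them below every control (log2 fold change -0.50 ± 0.10, SE, edgeR adjusted p = 0.00103). Under total-count scaling Eif2ak1 was at 0.0061 with no call (edgeR adjusted p = 0.963). Eif2ak1 and Eif2ak2 were chosen for naming after their values were seen. Ppp1r15a, which encodes GADD34, the phosphatase subunit that ends the response, was at 10.8, 15.3, 18.6, 18.8 and 17.2 CPM in controls. It was at 45.6, 136, 131, 138 and 82.7 CPM in treated samples, and replicate 1 was the lowest of these, as for Atf4. Its log2 fold change of 2.72 ± 0.29 (SE, edgeR adjusted p = 6.42e-06) stood beside 1.31 for Atf4, a difference that was not tested. Dele1, the relay from stressed mitochondria to the kinase HRI, had the largest fall of this list, by 0.94 ± 0.13 on the log2 scale (SE, edgeR adjusted p = 4.28e-05).

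Of the partner and feedback factors, 5 of 7 were called higher and none lower (edgeR). Atf3, a repressor induced by ATF4 and by many other stress signals, rose from 1.78 ± 0.727 to 35.8 ± 7.21 CPM (mean ± SD of 5 samples), or 4.33 ± 0.27 as log2 fold change (SE). The largest value among the members was 3.70, that of Trib3. Nupr1, a stress-induced chromatin protein, rose by 2.61 and Eif4ebp1, which blocks cap-dependent translation, by 2.00 on the log2 scale (log2 fold changes, SE 0.20 and 0.11). The dimer partners Cebpb and Cebpg rose by less, with log2 fold changes of 1.21 ± 0.29 and 0.66 ± 0.072 (SE).

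The amino acid and one-carbon enzymes divided, with 4 of 9 called higher and 5 lower. Mthfd2, the mitochondrial folate enzyme, rose from 4.64 ± 0.562 to 32.4 ± 2.03 CPM (mean ± SD of 5 samples), or 2.80 ± 0.11 as log2 fold change (SE, edgeR adjusted p = 4.70e-09). Shmt2, which works one step before it in mitochondria, went from 228.5 ± 18.0 to 53.2 ± 9.64 CPM (mean ± SD of 5 samples), or -2.10 ± 0.12 as log2 fold change (SE). The cysteine-forming enzymes Cbs and Cth fell too, with log2 fold changes of -2.35 ± 0.18 and -1.91 ± 0.12 (SE). All 3 falls kept their direction and call under total-count scaling, at -1.59, -1.84 and -1.40 for Shmt2, Cbs and Cth. Pycr1, a proline enzyme, was not tested, with 2 to 5 counts in control libraries and 8 to 27 in treated ones.

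Beside these falls, all 7 proximal tubule markers were called lower, and their summed level was 12500 to 15300 CPM in controls and 962 to 1830 CPM in treated samples. In bulk tissue, fewer cells of a type and less RNA per cell cannot be told apart. The part of the tubule markers' change in the values of the enzymes was not tested.

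Among tRNA synthetases and the tRNA exporter Xpot, 6 of 13 were called higher and none lower (edgeR), all by less than 2-fold under TMM scaling. The highest was Gars with a log2 fold change of 0.76 ± 0.068 and the lowest of those called was Nars with 0.26 ± 0.067 (SE). Under total-count scaling Gars was at 1.27 and Nars at 0.77. Of the amino acid transporters, 5 of 9 tested were called higher and 1 lower. Slc7a11, the cystine importer, had the largest log2 fold change of that list (3.19 ± 0.54, SE, edgeR adjusted p = 0.000247). It rested on 0 to 13 counts per control library and 74 to 122 per treated library. Slc38a2, a neutral amino acid importer that responds to starvation, rose by 1.06 ± 0.13 on the log2 scale (SE).

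Slc3a2, the partner chain of Slc7a11, was at 176.5 ± 68.0 CPM in controls and 155.5 ± 10.4 CPM in treated samples (mean ± SD of 5 samples). It was not called (log2 fold change -0.18 ± 0.21, SE, edgeR adjusted p = 0.464). The sign was positive under total-count scaling (0.32) and without control replicate 5 (0.053), still with no call. Slc1a4, a serine and alanine transporter, was called lower at -0.70 ± 0.16 (SE), and under total-count scaling was at -0.19 with no call (edgeR adjusted p = 0.316).

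Of the secreted and autophagy genes, 3 of 7 tested were called higher and 2 lower. Gdf15, a stress hormone that signals to the brainstem, was at 6.11 to 9.16 CPM in controls and at 46.1, 107, 102, 97.3 and 70.0 CPM in treated samples, a log2 fold change of 3.39 ± 0.23 (SE, edgeR adjusted p = 1.94e-07). Replicate 1 was the lowest here as well. Herpud1, an endoplasmic reticulum degradation factor, fell from 334.9 ± 39.6 to 81.8 ± 15.1 CPM (mean ± SD of 5 samples), or -2.03 ± 0.14 as log2 fold change (SE). Fgf21, a hormone that ATF4 induces in liver, was not tested, with at most 3 counts in a control library and 2 to 5 counts in treated ones. Of the 28 genes of these lists called higher, 13 were lowest in puberulic acid replicate 1. The same share over all genes called higher was not computed, so this count is not a result about the lists.

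The other arms of the unfolded protein response were read from 18 genes, 15 chaperones and folding genes that ATF6 and XBP1 drive and the 3 regulators Atf6, Ern1 and Xbp1. Of the 15, 5 were called higher and 5 lower, near the 34.2% and 31.1% of all tested genes. All 3 regulators were called higher, though the call for Ern1 was lost in 10 of 19 alternatives. Over the 18 genes the median log2 fold change was 0.0075, and under TMM scaling every called one differed by less than 2-fold. The largest rise under TMM scaling was that of Hspa5 (BiP), from 326.1 ± 36.5 to 526.5 ± 43.3 CPM (mean ± SD of 5 samples), or 0.69 ± 0.098 as log2 fold change (SE). Xbp1 and Dnajb9 rose by 0.35 ± 0.10 and 0.26 ± 0.095 on the log2 scale (SE, edgeR adjusted p = 0.00976 and 0.0288). The call for Dnajb9 was lost in 8 of 19 alternatives, where its adjusted p reached 0.112. Dnajc3, a co-chaperone, was called lower at -0.75 ± 0.14 (SE), and under total-count scaling was at -0.24 with no call (edgeR adjusted p = 0.131). Under total-count scaling 12 of the 18 were called higher and 0 lower by edgeR, with 0 lower at an unadjusted p-value under 0.05. Of all 16266 tested genes, 9179 were called higher and 2526 lower under that scaling. Hspa5 then had a log2 fold change of 1.20. DESeq2, run with its own scaling and not with total counts, called 6 of the 18 lower. Of these 18 genes 15 matched a promoter window, and 0 of the 15 windows held the element's core, where 3.97% of all windows do. At that share 0 of 15 is a usual count, so it shows no lack of the core in these genes. In the ATF4-linked lists, where 44 of 57 genes matched, the core was in 14 of 53 windows (26.4%). Of the 14 genes with the core, 7 were called higher, 2 lower (Slc1a4 and Herpud1), 3 neither and 2 were not tested.

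The paralogs of the members did not all share their direction. Trib1, a relative of Trib3, rose by 1.98 ± 0.13 on the log2 scale (SE), whereas Trib2 was called lower at -0.46 ± 0.14 (SE) but was at 0.053 with no call under total-count scaling. Sesn3 rose by 1.17 ± 0.17 (SE), whereas Sesn1 was called lower at -0.53 ± 0.14 (SE) and was at -0.015 with no call under total-count scaling. Ddit4l, the relative of Ddit4, rose from 10.2 ± 3.56 to 36.9 ± 2.52 CPM (mean ± SD of 5 samples), or 1.85 ± 0.19 as log2 fold change (SE). Chac2, which encodes the constitutive relative of CHAC1, fell from 46.2 ± 20.2 to 14.8 ± 1.28 CPM (mean ± SD of 5 samples), or -1.64 ± 0.23 as log2 fold change (SE). Chac1 and Chac2 thus moved in opposite directions, under total-count scaling as well (2.05 and -1.13).

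The genes most like Atf4 over the 10 libraries, among 14605 with a symbol and a mean of at least 1 CPM, were Ybx3, Rps6, Pdrg1, Nup62 and Cdca4. Their Pearson r with Atf4 on log2(CPM + 1) ran from 0.992 for Ybx3 to 0.991 for Cdca4, and the r of deviations from group means from 0.952 to 0.928. These genes were picked by their r over the same libraries, and a very high r leaves little room for a low r of deviations. The r of deviations is therefore not a separate measure of likeness for them. The values describe libraries of 2 groups, and all genes of a library share its scaling and depth. Ybx3, an RNA-binding protein, had a log2 fold change of 0.88 ± 0.12 (SE), and Rps6, a ribosomal protein, one of 0.75 ± 0.11 (SE). Nup62 overlaps Atf5 on the opposite strand. Of the members, Ddit3 came closest to Atf4 at rank 155 (r = 0.975). Members were not picked by r, so their values cannot be compared with those of the genes that were. For the members the r of deviations from group means was 0.775 for Ddit3, 0.589 for Phgdh, 0.587 for Ddit4, 0.437 for Atf5 and 0.374 for Trib3. It was -0.086 for Psat1, -0.296 for Sesn2, -0.346 for Asns and -0.631 for Chac1.

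Depth and cell type markers were read in the same libraries. Total estimated counts ran from 18409877 to 24705587 per library. Fibroblast markers (3 of 3 called higher) summed to 50.3 to 90.0 CPM in controls and 350 to 1390 CPM in treated samples, and macrophage markers (2 of 4 called higher) to 60.2 to 115 CPM and 114 to 297 CPM. Markers of dividing cells (2 of 2 called higher) went from 3.05 to 13.0 CPM in controls to 44.7 to 152 CPM, and the 3 tubule injury markers from 4.09 to 5.88 CPM to 1490 to 2700 CPM. Distal convoluted tubule markers (2 of 2 called lower) summed to 426 to 647 CPM in controls and 176 to 527 CPM in treated samples, and collecting duct markers (2 of 3 called lower) to 337 to 482 CPM and 127 to 248 CPM. Thick ascending limb markers (1 of 2 called lower) summed to 2640 to 4910 CPM in controls and 2910 to 5500 CPM in treated samples. Podocyte markers (1 of 2 called lower) summed to 65.3 to 188 CPM in controls and 13.6 to 95.9 CPM in treated samples. For endothelium (0 of 3 called) the sums were 99.4 to 156 CPM and 58.1 to 149 CPM. Neutrophil markers (4 genes) summed to at most 1.48 CPM in any library, with Ly6g at 0 in all, and T and B cell markers (4 genes) to at most 4.05 CPM. Puberulic acid replicate 3 alone stood apart in adipocyte markers (2 genes, 37.2 CPM, at most 0.815 CPM in any other library) and adrenal cortex markers (2 genes, 34.8 CPM, at most 3.18 CPM in any other) and urothelium markers (4 genes, 31.9 CPM, at most 9.12 CPM in any other), and leaving it out changed no call among the members. The part of these cell types in the members' values was not tested.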

How the data were processed

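Kidney RNA of 5 control and 5 puberulic acid samples was compared. The authors deposited 1 table of estimated counts by gene, not normalized as far as its values show. The submitters' processing notes name fastp 0.22.0, FastQC 0.12.1, MultiQC 1.28, Salmon 1.10.3 and DESeq2 with build GRCm39. The role of each tool and the annotation are not given in the sources used here. The 10 sample columns of the supplement lots, in 2 name sets, were not used. Symbols were found for 51344 of 55822 gene identifiers, which hold 99.3% of the counts.

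Estimated counts were rounded, filtered with filterByExpr, scaled with TMM factors (0.827 to 0.848 in controls, 1.17 to 1.26 with puberulic acid) and tested with edgeR 4.0.16 (limma 3.58.1, R 4.3.3), quasi-likelihood, robust off. Benjamini-Hochberg adjustment covered all 16266 genes, and calls were made at an adjusted p under 0.05. SE is the log2 fold change divided by the root of F. The script was tested on simulated data with few genes changed, evenly up and down. That test does not check the choice of scaling for these data. Labels do not say that samples are separate animals, so p-values measure only the spread between these samples. All 20 pairs of samples within a group differed by more than sampling noise (chi-square per degree of freedom 12.7 to 89.7, near 1 for sampling noise alone). Repeat libraries of the same animal could also exceed 1, so these values cannot show that the samples are separate animals. No sample was counted as a repeat of another, and how much of the spread is technical was not tested.

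Alternatives were RLE factors, total counts, upper-quartile scaling, no filter, 1 CPM in 5 samples, DESeq2 1.42.0, a robust fit, a replicate block and leaving out each sample. Members and lists were chosen with earlier results of these data known. Named genes are all members and their paralogs, 21 pathway genes, the called gene with the largest and smallest log2 fold change in each list, and the 5 genes most like Atf4. Eif2ak1, Eif2ak2, Atf6 and Ern1 were added after their values were seen.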

Additional observations from a re-analysis of the deposited data

Results flagged for a closer look

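Within each group of 5, the levels of the 10 members were searched for a sample that stood off from the closest other sample by more than 0.71 of the group's range. Of 20 groups of values 3 held one, where chance gives about 1. Chac1 in control replicate 2 was at 2.85 CPM, a gap of 0.757 of the range above the other controls. Phgdh in control replicate 5 was at 31.7 CPM, a gap of 0.738 above the others, and without that sample its log2 fold change was 2.11 in place of 1.67. Trib3 in puberulic acid replicate 2 was at 14.1 CPM, a gap of 0.787 above the other treated samples.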

How the results depend on the processing

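Of 190 values of the members' log2 fold changes under alternatives, 187 kept their direction and their side of the threshold and 3 gained a call, all of Sesn2, with none lost or reversed. The ranges were 1.16 to 1.81 for Atf4, 1.72 to 2.33 for Ddit3, 3.56 to 4.21 for Trib3, 3.40 to 4.06 for Asns, 1.35 to 2.18 for Chac1 and 0.12 to 0.69 for Sesn2. Total-count scaling called 9179 of all genes higher and 2526 lower (5564 and 5058 with TMM factors), or 78.4% of calls higher in place of 52.4%. It left 6 genes of the ATF4-linked lists lower and 0 of the 18 chaperones, folding genes and their regulators lower by edgeR (0 at an unadjusted p under 0.05), and turned Slc3a2 to 0.32, Trib2 to 0.053 and Eif2ak1 to 0.0061. DESeq2 with its own scaling called 6 of the 18 lower. Slc3a2 ran from -0.34 to 0.053 when single samples were left out, positive without control replicate 5. Of 779 values for the 41 other named genes tested, 753 kept direction and side, 22 lost their call and 4 reversed. Leaving out both replicates numbered 1, chosen after seeing the data, kept 9 members called. Same-numbered samples are not paired by the labels, and their deviations correlated from -0.172 to 0.039. Fitting the number as a replicate block gave 10325 calls in place of 10622, with 10111 in both, and 9 members called higher. Depth limits Trib3 and Chac1 in controls, at 8 to 20 and 8 to 54 counts.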
